A study of Homo sapiens with 6 samples.

Results

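The genes described here are 10 members of the AP-1 and ATF group of transcription factors: FOS, FOSB, FOSL1, FOSL2, JUN, JUNB, JUND, ATF3, BATF and MAFF. They were taken by gene symbol from the 61517 genes of 1 count table by a rule that uses no measured value, although the group itself was picked with earlier results of these data known. The table holds 6 libraries of oligo-dT-selected RNA from THP-1, a human monocytic leukaemia cell line. Per the series' design text the cells were turned into macrophages, and lipopolysaccharide (LPS) and ATP were used to bring on pyroptosis, a lytic inflammatory cell death. The treatment field reads "Lukotinib" for 3 libraries and "none" for the other 3, and the series title names the drug ruxolitinib, an inhibitor of the kinases JAK1 and JAK2. These groups are called ruxolitinib and control. All 6 libraries come from stimulated cells of 1 line, so the values show the drug's effect on top of stimulation, with no unstimulated level beside them. The sources used here name no dose, no times and no differentiating agent, and the labels give the cell type only as human mononuclear. Whether the replicates are separate cultures is not said either, so each p-value reflects the spread between these libraries, part of which may be technical.

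AP-1 is a family of dimers built from proteins with a basic region that grips DNA and a leucine zipper that holds the pair together (bZIP proteins). FOS proteins bind DNA mainly as partners of a JUN protein, whereas JUN proteins can also pair with each other. BATF, ATF3 and the small MAF protein MAFF join the same network and often repress. In macrophages LPS sets these genes off within a short time through MAP kinases, and AP-1 then works beside NF-kB at cytokine and protease genes. FOS, JUN, JUNB and ATF3 are classical immediate early genes, with unstable transcripts. JUNB, FOS and BATF are also known in other settings as genes that respond to cytokine receptors signalling through JAK kinases and STAT3, and interferon acts through the same kinases.

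AP-1 dimers prefer the letters TGANTCA, and ATF-containing dimers prefer TGACGTCA and close variants. The windows of 250 bases before the gene start were searched on both strands for TGANTCA and TGACNTCA, which differ in length, so that a match to one is not a match to the other. RefSeq promoter entries (GRCh38.p14) matched 9 of the 10 members, all but FOSL1, with 2 starts each for ATF3 and MAFF. TGACNTCA was in 4 of these genes, JUN, ATF3, JUND and MAFF, and in 6.86% of the 34943 promoter windows in the table. All 4 sites are shown. The 4 counts genes and the 6.86% counts windows. JUN and ATF3 hold TGACATCA, JUND and MAFF hold TGACGTCA, and FOS, FOSB, FOSL2, JUNB and BATF hold neither. Whether these sites bear on the transcript levels was not tested. Capitals mark the match, and each site is read 5′ to 3′ on the gene's own strand. They lie at chr1:58784096-58784125 (JUN, minus strand), chr1:212565273-212565302 (ATF3, plus strand), chr19:18281804-18281833 (JUND, minus strand) and chr22:38201929-38201958 (MAFF, plus strand).
JUN: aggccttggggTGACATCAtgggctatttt
ATF3: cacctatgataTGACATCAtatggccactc
JUND: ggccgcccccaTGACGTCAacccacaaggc
MAFF: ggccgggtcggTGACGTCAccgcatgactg

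The match began 67 bases before the RefSeq start in JUN, 123 in ATF3, 200 in JUND and 54 in MAFF. GENCODE 29 places an earlier start for 3 of the 4, so that 250 bases of the JUN window, 250 of the MAFF window and 73 of the ATF3 window are exon there. The JUND window, chr19:18281623-18281872, holds no GENCODE 29 exon of the gene and is printed whole.
JUND: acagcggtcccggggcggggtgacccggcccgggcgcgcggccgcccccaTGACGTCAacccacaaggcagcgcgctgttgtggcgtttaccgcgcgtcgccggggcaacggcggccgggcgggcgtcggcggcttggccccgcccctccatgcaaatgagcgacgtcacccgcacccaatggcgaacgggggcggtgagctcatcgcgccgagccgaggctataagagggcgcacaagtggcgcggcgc

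No window of the 9 genes held TGANTCA, found in 6.59% of all windows, the STAT-type site TTCNNNGAA (6.56%), an interferon-type site made of GAAA and again GAAA after 2 further bases (3.02%) or the serum-response CArG box (1.16%). Bases further upstream were not searched, and with shares this low a lack of matches in so few windows says little. These matches describe letters only. The JUND window has a GC content of 74.8%, the JUN window 62.0% and the ATF3 window with the match 49.2%, against a mean of 57.2% over all windows.

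The libraries held 17757595 to 24533979 counts. Levels are in CPM, the count as a part of the library total after that total was scaled by edgeR's TMM factors, and a count of 0 allows up to 0.122 to 0.169 CPM, for counting error only. The monocyte and macrophage markers summed to 1300 to 1432 CPM in control and 674 to 785 CPM with ruxolitinib. Of the 11 tested, 10 passed the threshold, 9 of them lower, beside 29.7% of all tested genes past it and 16.1% lower. CD14, CD68 and CSF1R were among the 9, and LYZ rose (log2 fold change 0.20 ± 0.07, edgeR adjusted p = 0.0362). Of the 13 markers on the list, 4 were under 2 CPM throughout: MRC1, FCGR1A, MPO and ELANE. Their part in the results below was not tested. Among 14 markers of other cell types, 12 were under 2 CPM in every library, and 5 of these, among them the T-cell gene CD3D, had no count. The exceptions were PECAM1, which fell, and NCAM1, both above 100 CPM throughout, and the list summed to 1040 to 1108 CPM in control and 770.3 to 779.3 CPM with ruxolitinib. In bulk RNA, fewer cells of a type and less RNA per cell cannot be told apart.

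Control replicate 2 stood apart from the other controls in a way that touches several members. Relative to the mean of control replicates 1 and 3, its genes in the top decile of transcript GC content (60.5 to 73.9%) had a median log2 difference of 0.42, against -0.06 in the bottom decile. Over 13875 tested genes, that difference had Pearson r = 0.393 and Spearman rho = 0.431 with GC content, given as a description of these libraries. The deviations of the ruxolitinib libraries in the top decile were 0.08, -0.04 and 0.15, those of control replicates 1 and 3 were -0.17 and -0.19, and that of control replicate 2 was 0.26. JUNB, JUND and MAFF lie in that decile, so each is given with and without control replicate 2. JUN, FOSB and FOSL2, which lie outside it, are given both ways too. That library was not in the noisiest pair of replicates. The chi-square statistic per degree of freedom was 21.1 between ruxolitinib replicates 2 and 3, beside 7.07 and 7.19 between control replicate 2 and the other controls. Without ruxolitinib replicate 2, JUNB, JUND and MAFF did not pass (edgeR adjusted p = 0.498, 0.19 and 0.544).

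**Figure D1:**
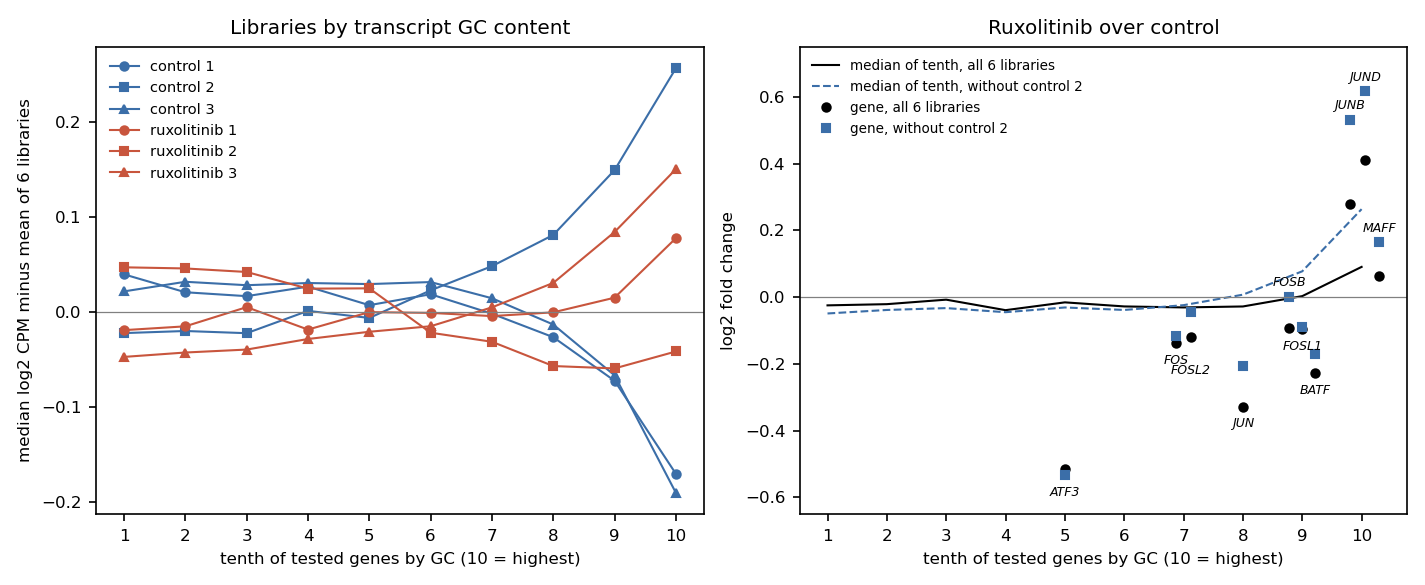
Left: median log2 CPM minus the mean of the 6 libraries (vertical axis) for tested genes in deciles of transcript GC content (horizontal axis), 1 line per library, blue for control and red for ruxolitinib, with circles, squares and triangles for replicates 1 to 3; control replicate 2 reaches 0.26 in the top decile and the other controls -0.17 and -0.19. Right: log2 fold change of ruxolitinib over control for each member at its GC decile, for all 6 libraries (black circles) and without control replicate 2 (blue squares), with the median of each decile as a solid black and a dashed blue line. Members of 1 decile are set apart sideways, and JUNB and JUND lie above the line of the same colour in both fits.

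With ruxolitinib, ATF3 and JUN fell, and no member passed the test as higher. That is 2 of 10 members past the adjusted p threshold of 0.05 in edgeR's quasi-likelihood test, beside 29.7% of the 14051 genes tested, and 2 lower beside 16.1% of all genes lower. All 10 members were high enough to test. Their median log2 fold change was -0.11, against -0.01 over all tested genes. The groups did not overlap for 3 members, FOS, JUN and ATF3, beside 44.1% of all genes. With the batch number as a block, 1 member passed, ATF3, beside 20.7% of all genes.

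The members' count moved with the settings, as did the background. ATF3 alone passed with upper-quartile scaling (30.4% of all genes), without ruxolitinib replicate 1, 2 or 3 (20.4, 25.2 and 26.1%) and with batch 1 or batch 3 left out (13.8 and 20.6%). ATF3 and JUN passed with median-ratio scaling (29.3%), with a filter of 1 CPM in 3 libraries (32.8%), by limma-voom (29.1%) and without control replicate 1 or 3 (22.2% each). A 3rd member joined them with library totals alone (FOS, 29.9%), with no filter (JUND, 14.7%), by DESeq2 (JUND, 23.4%) and with the GC trend removed (JUNB, 33.9%). Without both libraries of batch 2, 5 members passed (35.6%), JUN and ATF3 as lower and JUNB, JUND and MAFF as higher.

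**Figure D2:**
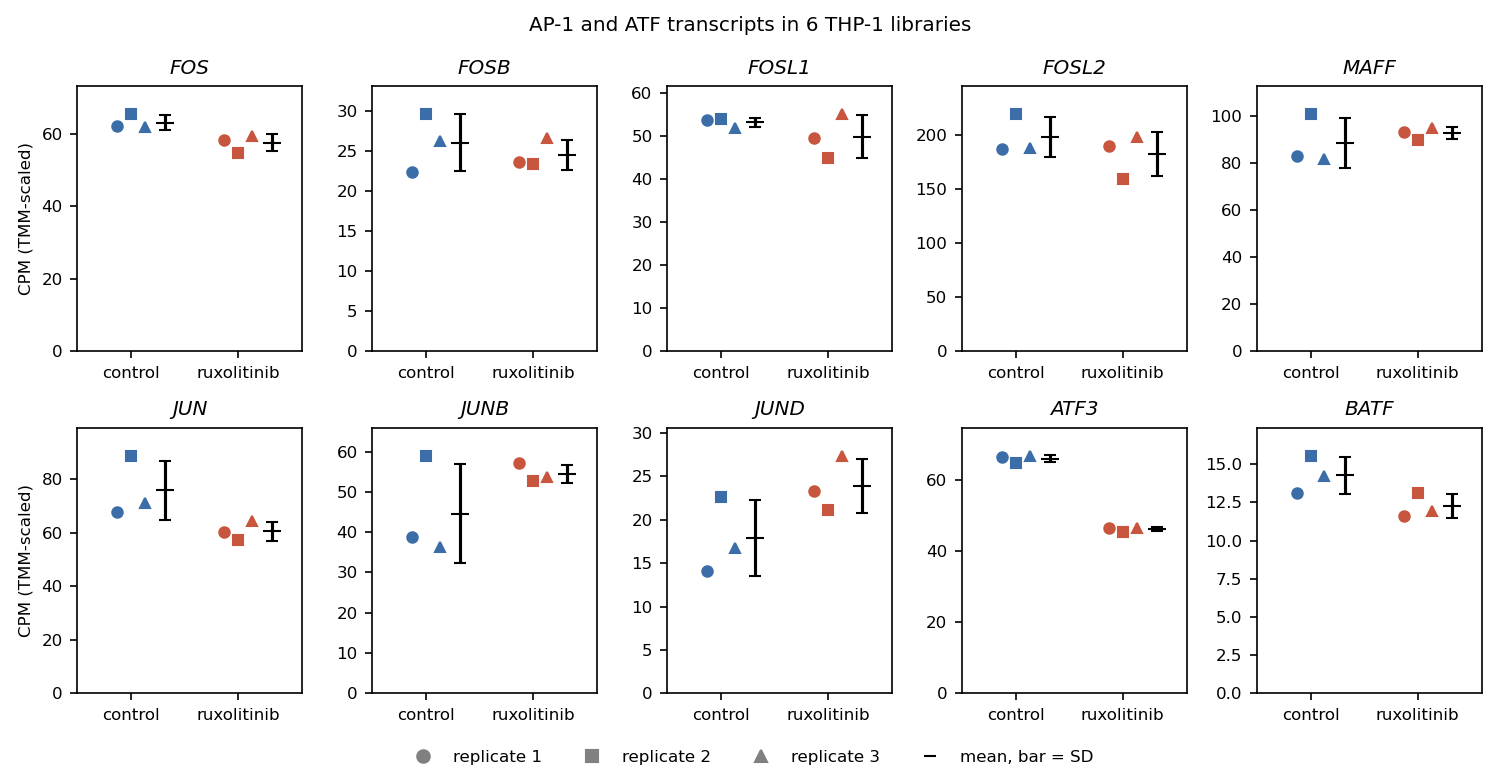
CPM over TMM-scaled totals (vertical axis, from 0, a separate scale per gene) of the 10 members in 3 control (blue) and 3 ruxolitinib (red) libraries, with a symbol per replicate and the mean with its SD in black. ATF3 fell from 65.9 to 46.1 CPM with narrow groups, while control replicate 2 (blue square) is the highest control for JUNB at 58.8 CPM and for JUND at 22.7 CPM.

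ATF3 had the clearest change of the group. This stress-induced factor is known to restrain LPS-driven cytokine genes in macrophages, and it lies on chromosome 1 at 212565334 to 212620777 (GENCODE 29, GRCh38). It stood at 66.4, 64.7 and 66.5 CPM in control replicates 1 to 3, and at 46.4, 45.4 and 46.5 CPM with ruxolitinib. The groups are far apart next to their spread, at 65.9 ± 0.978 and 46.1 ± 0.628 CPM (SD, n = 3 each). The fold was 0.699, with a 95% interval of 0.648 to 0.755 and a log2 fold change of -0.52 ± 0.05 (SE, edgeR adjusted p = 1.18e-05). Within batches 1 to 3, the log2 difference was -0.52, -0.51 and -0.52. ATF3 passed in all 18 alternative fits, with adjusted p-values up to 0.00276.

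JUN, the founding partner of FOS proteins, fell by a smaller amount. It lies on chromosome 1 at 58780788 to 58784327, with a single exon block of 3540 bases. Its level was 67.8, 88.4 and 71.0 CPM in control and 60.1, 57.3 and 64.2 CPM with ruxolitinib. The highest value belongs to control replicate 2, and the groups do not overlap without it either. The log2 fold change was -0.33 ± 0.10 (edgeR adjusted p = 0.0406), a fold of 0.797 with a 95% interval of 0.679 to 0.935. Within batches it was -0.18, -0.63 and -0.15. Without control replicate 2 the log2 fold change was -0.21 ± 0.07 (adjusted p = 0.0259). The call was lost with the batch block (adjusted p = 0.0759), with upper-quartile scaling (0.0562), without ruxolitinib replicate 1, 2 or 3 (0.118, 0.181 and 0.0638) and when batch 1 or batch 3 was left out whole (0.0569 and 0.0756).

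JUNB and JUND, by contrast, did not pass with all libraries. JUNB, often an opponent of JUN in growth control and a known STAT3 target, lies on chromosome 19 at 12791496 to 12793315. It measured 38.8, 58.8 and 36.3 CPM in control and 57.0, 52.6 and 53.7 CPM with ruxolitinib. Control replicate 2 sits above all 3 ruxolitinib libraries and the other controls sit well below them. By batch (1 to 3), the log2 difference was 0.56, -0.16 and 0.57. Over all libraries the log2 fold change was 0.28 ± 0.20 (edgeR adjusted p = 0.371), and the fold of 1.21 had a 95% interval of 0.851 to 1.73. Without control replicate 2 JUNB was higher by 0.53 ± 0.07 on the log2 scale (adjusted p = 2.38e-05). The median over genes of its GC decile was 0.09 with all libraries and 0.26 without that one. With each library's trend against GC content removed, JUNB was higher by 0.18 ± 0.06 (adjusted p = 0.0385). That removal also takes out any difference between the groups that follows GC content.

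JUND, the JUN protein most often present in resting cells, had a like pattern over libraries. It lies on chromosome 19 at 18279760 to 18281622, and its transcript has the highest GC content of the members, 69.7%. Control libraries had 14.1, 22.7 and 16.8 CPM, and ruxolitinib libraries had 23.3, 21.1 and 27.3 CPM. Again only control replicate 2 reaches the ruxolitinib range. By batch, the log2 difference was 0.72, -0.10 and 0.70. The log2 fold change was 0.41 ± 0.18 (edgeR adjusted p = 0.151, 95% interval -0.03 to 0.85). It was 0.62 ± 0.12 without control replicate 2 (adjusted p = 0.0013) and 0.22 ± 0.09 with the GC trend removed (adjusted p = 0.0706). JUND also passed by DESeq2 (adjusted p = 0.021) and without a filter on low counts (1.9e-04).

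Set against JUN within the same library, JUNB and JUND stood higher in every ruxolitinib library than in any control, control replicate 2 included. The count ratio of JUNB to JUN was 0.572, 0.665 and 0.511 in control and 0.949, 0.918 and 0.837 with ruxolitinib. JUND to JUN was 0.208, 0.256 and 0.236 in control and 0.388, 0.369 and 0.425 with ruxolitinib. Neither pair of groups overlaps, but JUN, the denominator of both, fell without overlap by itself, and 44.1% of all tested genes did not overlap. The share of such ratios over all gene pairs was not computed. The ratio of JUND to JUNB overlapped between groups (0.404 ± 0.0517 and 0.439 ± 0.0595, SD, n = 3 each). Summed over the 3 genes, the JUN family came to 138 ± 27.4 CPM in control and 139 ± 7.26 CPM with ruxolitinib. The ratios were formed after the values were seen and carry no test, and the 3 transcripts differ in GC content (56.7% for JUN, 64.9% for JUNB and 69.7% for JUND).

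**Figure D3:**
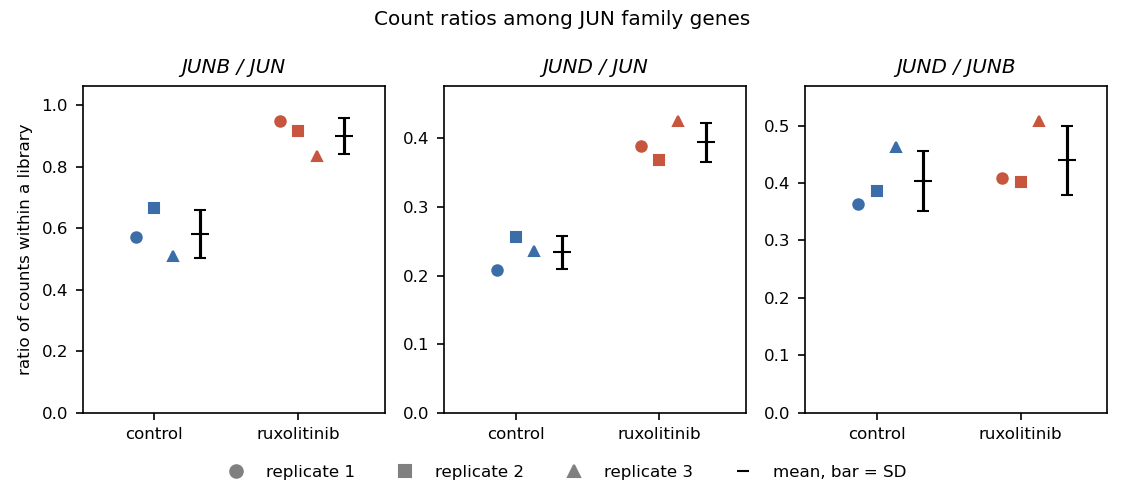
Ratio of raw counts between JUN family genes within each library (vertical axis, from 0), for control (blue) and ruxolitinib (red), with a symbol per replicate and the mean with its SD in black. JUNB to JUN is at most 0.665 in control and at least 0.837 with ruxolitinib, while JUND to JUNB overlaps.

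None of the FOS family genes passed the test. FOS, the short-lived partner of JUN, is on chromosome 14 at 75278774 to 75282230. Its level was 62.2, 65.3 and 61.8 CPM in control and 58.3, 54.8 and 59.3 CPM with ruxolitinib, so every ruxolitinib library lies slightly below every control. The log2 fold change was -0.14 ± 0.06 (edgeR adjusted p = 0.084), with a 95% interval of -0.26 to -0.02. By batch (1 to 3), FOS differed by -0.09, -0.25 and -0.06 on the log2 scale. It passed in 1 of 18 alternatives, scaling by library totals alone (-0.17, adjusted p = 0.04), which moves the median of all genes by -0.04.

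FOSL2 (FRA-2), which outlasts FOS after stimulation, is on chromosome 2 at 28392448 to 28417312. Its control libraries had 187, 219 and 189 CPM and its ruxolitinib libraries 190, 160 and 198 CPM, in overlapping ranges (log2 fold change -0.12 ± 0.10, edgeR adjusted p = 0.414). FOSL1 (FRA-1), a late-response FOS protein that lacks the transactivation domain of FOS, is on chromosome 11 at 65892049 to 65900573. It had 53.7, 53.9 and 52.0 CPM in control and 49.5, 45.0 and 55.1 CPM with ruxolitinib. The ruxolitinib libraries lie on either side of the control range (-0.09 ± 0.07, adjusted p = 0.365). By batch, the log2 difference of FOSL1 was -0.12, -0.26 and 0.08.

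FOSB, known for a stable short splice form in brain, is on chromosome 19 at 45467995 to 45475179. Its levels of 22.3, 29.5 and 26.2 CPM in control and 23.6, 23.3 and 26.7 CPM with ruxolitinib overlap (log2 fold change -0.09 ± 0.10, adjusted p = 0.53). The 95% intervals of the fold reached 0.787 to 1.08 for FOSL2, 0.840 to 1.04 for FOSL1 and 0.804 to 1.09 for FOSB. Each of the 6 count ratios among FOS family genes overlapped between the groups. The FOS family summed to 325, 368 and 329 CPM in control (341 ± 23.8). With ruxolitinib the sums were 322, 283 and 339 CPM (315 ± 28.8), in overlapping ranges.

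BATF, which has a bZIP domain but no transactivation domain and pairs with JUN proteins beside IRF4 or IRF8, is on chromosome 14 at 75522425 to 75547015. It measured 13.1, 15.5 and 14.2 CPM in control and 11.6, 13.1 and 11.96 CPM with ruxolitinib. Ruxolitinib replicate 2 overlaps the control range. The log2 fold change was -0.23 ± 0.10 (edgeR adjusted p = 0.1), and it was negative in each of the 3 batches (-0.17, -0.24 and -0.25). BATF passed in 0 of 18 alternatives, where adjusted p-values ran from 0.0564 to 0.288, and its unadjusted p was 0.0374.

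MAFF, a small MAF protein that pairs with NRF2 or BACH1 at antioxidant elements, is on chromosome 22 at 38200767 to 38216511. It had 83.2, 101 and 81.6 CPM in control and 93.3, 90.1 and 94.96 CPM with ruxolitinib. By batch (1 to 3), the log2 difference was 0.17, -0.16 and 0.22. Control replicate 2 is the highest of the 6 libraries, and the other controls are the lowest (log2 fold change 0.06 ± 0.08, adjusted p = 0.58). Without control replicate 2 it was higher by 0.16 ± 0.06 (adjusted p = 0.04), below the median of its GC decile there, 0.26, and with the GC trend removed the value was -0.00 ± 0.05 (adjusted p = 0.986). Without control replicate 2, then, 5 of 10 members passed, 3 higher (JUNB, JUND and MAFF) and 2 lower (JUN and ATF3), beside 14.7% of genes higher and 15.2% lower.

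**Figure D4:**
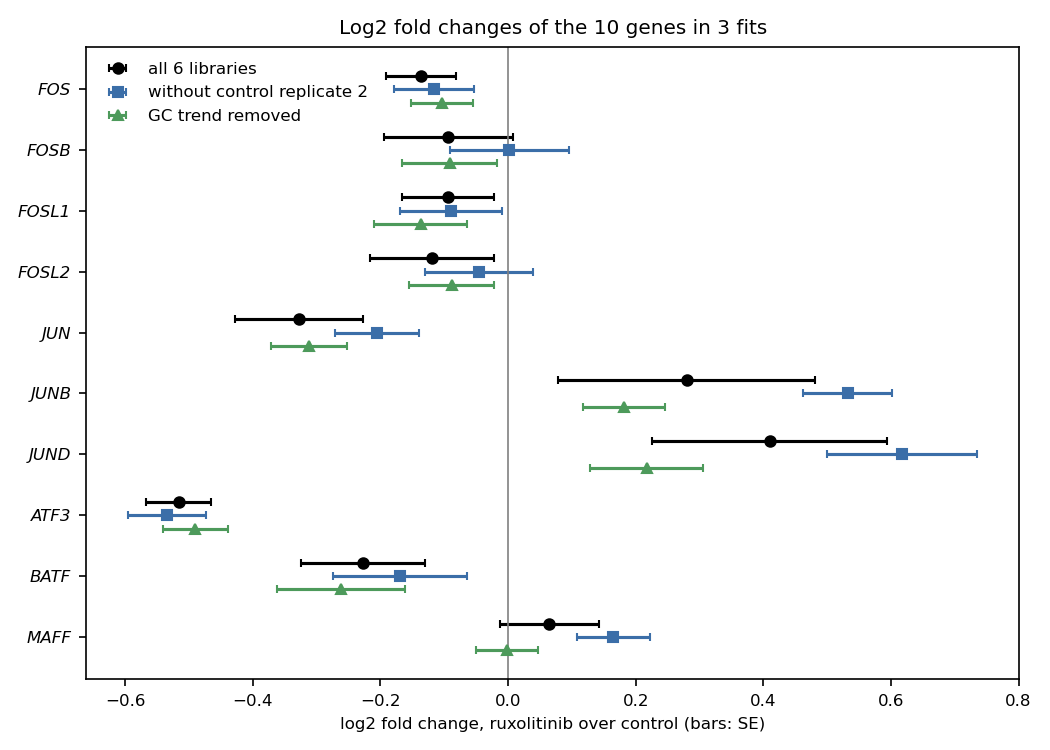
Log2 fold change of ruxolitinib over control (horizontal axis, bars are SE) for the 10 members (vertical axis) with all 6 libraries (black circles), without control replicate 2 (blue squares) and with each library's GC trend removed (green triangles). ATF3 stays between -0.53 and -0.49, JUNB ranges from 0.18 to 0.53 and MAFF from -0.00 to 0.16.

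Levels between members can be compared only per length. On merged exon length from GENCODE 29, control levels in CPM per kilobase were 28.2 ± 0.563 for FOSL1, 27.7 ± 2.54 for FOSL2, 24.5 ± 6.77 for JUNB, 21.4 ± 3.13 for JUN and 19.5 ± 0.597 for FOS (SD, n = 3). Then came ATF3 at 16.3 ± 0.242, MAFF at 15.8 ± 1.89, BATF at 14.6 ± 1.23, JUND at 9.58 ± 2.35 and FOSB at 4.69 ± 0.649. Neighbours from FOSL1 to FOS overlap within 1 SD, as do ATF3, MAFF and BATF. With ruxolitinib JUNB was first at 29.9 ± 1.27, ATF3 was ninth of the 10 at 11.4 ± 0.155 and JUND was at 12.8 ± 1.68. The order rests on the length used: on median transcript length FOS (77.4 ± 2.37) and ATF3 (76.8 ± 1.14) led in control. FOSB was last on either length.

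One member shares exon sequence with another gene. HOOK2, on the opposite strand, overlaps JUNB by 259 bases and had 38 to 79 counts per library, beside 693 to 1478 for JUNB, and the sources used here do not give the strand setting of the counting.

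Among 42 other bZIP genes, 35 were tested, of which 6 rose, 6 fell and 23 did not pass (34.3% called, beside 29.7% of all genes, 13.6% higher and 16.1% lower, and a median log2 fold change of 0.03). With the batch block 1 rose and 5 fell. BATF2, an interferon-induced relative of BATF, changed most. It went from 7.06, 8.31 and 6.84 CPM in control to 0.786, 0.700 and 0.588 CPM with ruxolitinib, a log2 fold change of -3.41 ± 0.19 (edgeR adjusted p = 8.87e-08). BATF3 was under 0.4 CPM in every library and was not tested. The changes of BATF and BATF2 were not tested against each other.

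NFIL3, a bZIP repressor, fell by 0.33 ± 0.05 on the log2 scale (edgeR adjusted p = 2.2e-04). XBP1, a driver of the unfolded protein response, rose by 0.66 ± 0.04. Of the ATF genes closest to ATF3, ATF2 differed by 0.20 ± 0.07 (adjusted p = 0.0422, against 0.117 with the batch block and 0.119 without control replicate 2). The ATF2 call was also lost with library totals alone (0.0788), by DESeq2 (0.06) and by limma-voom (0.0572). Leaving out control replicate 1 (0.111), ruxolitinib replicate 1 or 2 (0.0807 and 0.132) or batch 1 or 2 (0.208 and 0.231) lost it too. ATF4, the main factor of the integrated stress response and a known activator of ATF3, was at 306 ± 6.31 and 330 ± 0.819 CPM (0.11 ± 0.04, adjusted p = 0.073). ATF7 had -0.23 ± 0.09 (0.0898, but 0.045 with the block and 0.0362 without control replicate 2) and JDP2, a repressor that pairs with JUN, -0.33 ± 0.17 (0.18). CREM rose by 0.22 ± 0.06 (0.0105, but 0.0519 with the block and 0.063 with batch 1 left out).

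The partners of MAFF showed small differences. NFE2L2, which encodes NRF2, was higher by 0.19 ± 0.05 (edgeR adjusted p = 0.0168, but 0.079 with the block, 0.0513 without control replicate 2 and 0.0616 without ruxolitinib replicate 1), and BACH1, its repressor counterpart, had -0.15 ± 0.05 (0.0464, but 0.105 with median-ratio scaling and 0.129 with the block). The other small MAF genes, MAFG and MAFK, had 0.05 ± 0.19 (0.864) and 0.47 ± 0.34 (0.385). MAFK measured 11.7, 24.8 and 12.4 CPM in control and 22.9, 20.1 and 25.5 CPM with ruxolitinib. Like JUNB and JUND, it reached the ruxolitinib range in control replicate 2 alone of the controls, and without that library it was higher by 0.91 ± 0.11 (adjusted p = 8.79e-06). Its transcript GC content of 63.4% lies in the top decile, where the median log2 fold change without that library was 0.26.

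**Figure D5:**
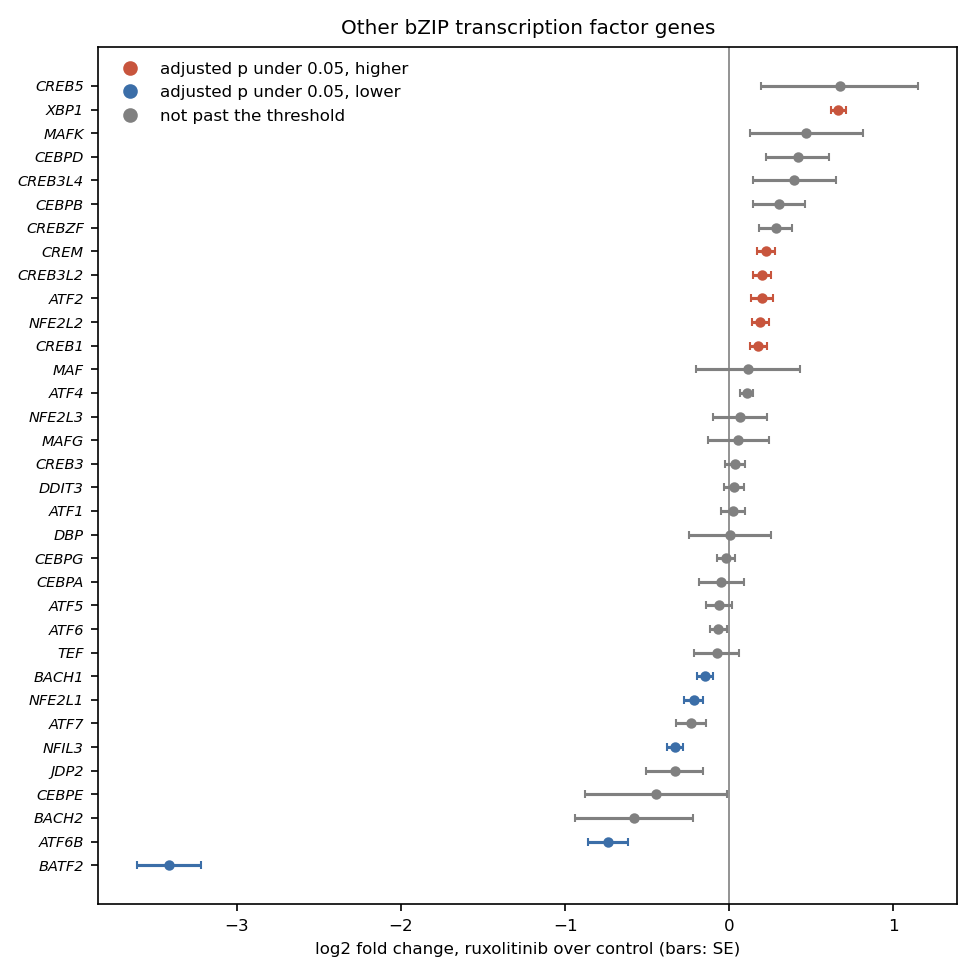
Log2 fold change of ruxolitinib over control (horizontal axis, bars are SE) for 34 of the 35 tested genes of the other bZIP list (vertical axis, ordered by value), red for those past the adjusted p threshold and higher, blue for lower and grey for the rest. BATF2 lies at -3.41, far from the other genes, which lie between -0.74 and 0.67.

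Of the IRF proteins that bind DNA with BATF and JUN, IRF8 rose and IRF4 fell. IRF8 went from 9.91, 10.7 and 10.3 CPM to 17.0, 17.7 and 17.9 CPM, a rise of 0.76 ± 0.09 on the log2 scale (edgeR adjusted p = 3.47e-05). IRF4 was low, at 1.96, 2.39 and 2.61 CPM in control and 0.733, 0.754 and 1.34 CPM with ruxolitinib (-1.30 ± 0.28, adjusted p = 0.00391). In the list of 8 partner and IRF genes, 2 rose and 4 fell (75% called, beside 29.7% of all genes, median -0.26), and IRF7, a master regulator of interferon genes, fell by 2.63 ± 0.24.

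Upstream of AP-1, 30 of 31 MAP kinase cascade genes were tested, and 5 rose, 5 fell and 20 did not pass (33.3% called, beside 29.7% of all genes, median 0.10). MAP2K1, which encodes the ERK-activating kinase MEK1, rose from 214 to 291 CPM (log2 fold change 0.44 ± 0.04, edgeR adjusted p = 9.66e-06). MAP3K8 (TPL2), which links the LPS receptor to ERK, rose by 0.35 ± 0.06, and MAP2K3, a p38 activator, by 0.30 ± 0.05 (adjusted p = 9.2e-04, rising to 0.0529 when batch 1 was left out). MAPKAPK3, a kinase downstream of p38, fell by 0.45 ± 0.05. These are transcript levels and say nothing of kinase activity.

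Of 14 genes for factors that drive FOS and JUN transcription, 0 rose, 6 fell and 8 did not pass (42.9% called, beside 29.7% of all genes, 16.1% lower, median -0.17). Without both libraries of batch 2 the counts were 4 higher and 6 lower, and without both of batch 1 they were 0 and 2. MEF2A, a factor at the JUN promoter, fell from 140 ± 2.23 to 102 ± 2.19 CPM (log2 fold change -0.46 ± 0.04, edgeR adjusted p = 1.01e-05). MEF2C fell by 0.27 ± 0.05, the CREB coactivator gene CRTC3 by 0.37 ± 0.07 and the acetyltransferase gene EP300 by 0.28 ± 0.06. The first and second of these 3 calls were lost without both libraries of batch 1 (adjusted p = 0.0648 for MEF2C and 0.0859 for CRTC3).

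Among 18 regulators of AP-1 protein and mRNA, 3 rose, 3 fell and 12 did not pass (33.3% called, beside 29.7% of all genes, median 0.06), or 2 higher and 1 lower with the block. ZFP36L1, which promotes decay of AU-rich transcripts, fell from 13.6 to 7.65 CPM (log2 fold change -0.83 ± 0.11, edgeR adjusted p = 1.4e-04). HDAC3 and NACA, known as a corepressor and a coactivator of JUN, rose by 0.37 ± 0.06 and 0.32 ± 0.05. NCOR1, another corepressor, fell by 0.19 ± 0.05 (adjusted p = 0.0154, but 0.082 by DESeq2, 0.0733 with the block, 0.0835 without control replicate 3 and 0.0597 without ruxolitinib replicate 1). Leaving out batch 1 or batch 3 also lost the NCOR1 call (0.125 and 0.0957).

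Of 26 other immediate early genes, 23 were tested, of which 9 rose, 4 fell and 10 did not pass (56.5% called, beside 29.7% of all genes, median 0.03). DUSP2, a nuclear MAP kinase phosphatase, rose from 6.21 to 14.5 CPM (log2 fold change 1.22 ± 0.12, edgeR adjusted p = 1.02e-05), the orphan receptor gene NR4A2 by 1.01 ± 0.08 and the survival gene IER3 by 0.51 ± 0.04. KLF6, a zinc finger factor, fell by 0.50 ± 0.04.

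Genes that textbooks list as AP-1 targets moved in both directions: of 26 tested out of 27, 8 rose, 10 fell and 8 did not pass (69.2% called, beside 29.7% of all genes, 13.6% higher and 16.1% lower, median -0.01). CCL2, a monocyte chemoattractant, fell by 3.61 ± 0.08 on the log2 scale (edgeR adjusted p = 7.43e-12). PLAU, the urokinase gene with a well-known AP-1 enhancer, fell from 1095 to 620 CPM (-0.82 ± 0.04), and HMOX1 fell by 0.67 ± 0.04. PTGS2, which encodes cyclooxygenase-2, rose from 676 to 1026 CPM (0.60 ± 0.05). Most of these genes also answer to NF-kB or STAT factors, and AP-1 binding was not measured.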

How the data were processed

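The values are whole-number counts of reads for each gene in 6 libraries, as deposited by the authors. Per the submitters' processing notes the build was hg38. The sources used here do not give the aligner, counting program, annotation release or strand setting. From these counts, edgeR 4.0.16 (R 4.3.3) was run over the whole table: filterByExpr (minimum count 10, minimum total 15), which left 14051 genes, TMM scaling, and the robust quasi-likelihood test with Benjamini-Hochberg adjustment over all of them (threshold 0.05). Standard errors (SE) come from the coefficient and its F statistic. The procedure was tested on simulated data. The members and gene lists were chosen with earlier results of these data known, and no list was tested as a set. All members are described, with up to 4 genes of smallest adjusted p from each of 7 other lists and fixed dimer partners, of which 1 gene is not reported here.

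Per the labels, a batch number (1 to 3) pairs a control with a ruxolitinib library. Deviations of paired libraries from their group means correlated at -0.02, -0.19 and -0.10 over genes, so the pairing rests on the label. Counts of replicates differed by more than sampling noise in every pair. The alternatives were median-ratio, upper-quartile and no scaling, other filters, DESeq2 1.42.0, limma-voom (limma 3.58.1), the batch block, and leaving out each library or batch. Removal of the GC trend (lowess, span 0.3, on the GC content of the longest GENCODE 29 transcript) was added after seeing the data. The trend was fitted to each library's deviation from the mean of all 6 libraries. A difference between groups that follows GC content is therefore removed as well. Of the table's gene identifiers, 58340 were in GENCODE 29.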

Additional observations from a re-analysis of the deposited data

How the results depend on the processing

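Of 18 alternatives, ATF3 passed in all 18, JUN in 11, JUND in 4, JUNB in 3, MAFF in 2, FOS in 1, and FOSB, FOSL1, FOSL2 and BATF in 0. No called direction of a member or named gene reversed. Of 864 comparisons of a gene with its main value, 798 kept their side of the threshold, 45 lost a call and 21 gained one. The count of members past the threshold was 1 with upper-quartile scaling, 1 with the replicate block, 1 without both libraries of batch 1, 5 without both of batch 2, 1 without both of batch 3, and 1 to 5 when single libraries were left out. Without both libraries of batch 1 the count was 1983 over all genes, and by list 5 for other bZIP factors, 4 for the MAP kinase cascade, 2 for factors that drive FOS and JUN, 3 for regulators, 8 for other immediate early genes and 11 for textbook targets. With the replicate block it was 6 for other bZIP factors and 3 for regulators, where DESeq2 also gave 3. Without both libraries of batch 2 it was 10 for factors that drive FOS and JUN, and without both of batch 3 it was 3 for regulators and 8 for other immediate early genes. Leaving out single libraries gave 6 to 12 for the MAP kinase cascade and 3 to 7 for regulators. Apart from the fewer libraries, the cause was not tested. Levels per kilobase moved by more than 1 SD on median transcript length for 8 of the members. The differences of FOS and BATF did not pass over all genes, although their unadjusted p-values were 0.0295 and 0.0374.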

Other observations

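Some genes outside the naming rule shared the pattern of JUNB and JUND over libraries and were chosen after their values were seen. IER2, an immediate early gene, measured 27.1, 41.7 and 29.1 CPM in control replicates 1 to 3 and 50.5, 50.3 and 53.8 CPM with ruxolitinib (log2 fold change 0.65 ± 0.16, edgeR adjusted p = 0.0302). IER5 had 29.5, 41.3 and 28.4 CPM and then 51.4, 54.2 and 52.9 CPM (0.67 ± 0.14, adjusted p = 0.0116). In both, control replicate 2 was the highest control but stayed below every ruxolitinib library. CEBPB, a bZIP factor of inflammatory genes, had 77.4, 107 and 72.5 CPM in control and 106, 104 and 108 CPM with ruxolitinib, where the groups overlap through that library alone (0.30 ± 0.16, adjusted p = 0.216). Transcript GC content was 61.7% for IER2 and 66.2% for CEBPB, in the top decile, but 49.8% for IER5, outside it.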
